A study of Mus musculus with 2 samples.

Results

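The mitochondrial chromosome of the mouse carries 37 genes, and all 37 were taken here by their mt- symbols from the 43346 genes measured in MEL cells. They comprise 13 mRNA genes, 2 rRNA genes and 22 tRNA genes. MEL is an established line of mouse erythroleukemia cells, transformed precursors of red blood cells. Polyadenylated RNA of these cells was sequenced single-end in 2 libraries of 1 group, biological replicates 1 and 2 by their labels. The labels name no treatment, genotype or time point, and give the sex as not collected and the age as unknown, so no condition was compared with another. All values below are a description with no test, and they carry the SD of the 2 replicates where a mean is given.

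Mitochondrial DNA is a small circular genome that is present in many copies per cell and is transcribed by its own polymerase into long RNAs from both strands. The tRNAs lie between most of the other genes and are cut out of the long RNAs, which releases the mRNAs and rRNAs, and most mRNAs then receive a poly(A) tail. The mRNAs encode core subunits of respiratory chain complexes I, III and IV and of the ATP synthase, complex V, whose other subunits come from nuclear genes, and the rRNAs and tRNAs serve the translation of those mRNAs inside mitochondria. Pieces of mitochondrial DNA have also been copied into nuclear chromosomes in the course of evolution, and reads of a mitochondrial RNA can match such a copy. In red cell precursors mitochondria carry out steps of heme synthesis and iron-sulfur cluster assembly, and they are removed as red cells mature.

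Replicate 1 held 67735380 and replicate 2 held 79923143 expected counts, that is, reads per gene after reads with several matches were divided by a model. Levels are in TPM, a relative number of transcripts corrected for the effective length of the gene, which here was the length minus 44 bases. All 10 markers of red cell precursors, among them the transcription factor genes Gata1, Klf1 and Tal1 and 4 adult globin genes, reached 1 TPM in both replicates, with values of 35.8 to 376. Of the 16 markers of lymphoid, myeloid, fibroblast, epithelial and liver cells 0 did so, and their highest value was 0.49 TPM. No source used here says whether counting used the strand, so reads of genes that overlap or face an RNA of the opposite strand cannot be told apart. Positions are on the mouse build mm10.

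By reads assigned to the mitochondrial genes themselves, 3 of the 20 highest genes of both replicates were mitochondrial, mt-Atp8, mt-Co1 and mt-Nd1. Nuclear copies of mt-Co2, mt-Atp6 and mt-Co3, described below, also stood above mt-Nd1 in both replicates and are not in this count. The 37 genes held 4.96% of all TPM in replicate 1 and 3.33% in replicate 2, a mean of 4.15% ± 1.15 (SD, n = 2). Of the expected counts they held 2.56% and 1.78%, or 1735467 and 1426533 reads. Together with the 20 nuclear copies described below, each copy taken at its own deposited TPM, they held 8.87% and 5.82% of TPM. Of expected counts they and the copies held 4.19% and 2.91%. All 13 mRNAs, both rRNAs and 20 of the 22 tRNAs reached 1 TPM in both replicates, against 26.9% of all genes measured. Of the reads on the chromosome the mRNAs took 82.3% and 92.4%, the rRNAs 17.3% and 7.12%, and the tRNAs 0.419% and 0.462%. Thus mRNAs took most mitochondrial reads in both replicates, and the rRNA share was the one that differed most. In bulk RNA, fewer cells rich in mitochondrial RNA and less of it per cell cannot be told apart.

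Many reads were assigned to nuclear genes that carry mitochondrial sequence, and those copies come first because 5 of the mRNAs divide reads with them. Among annotated nuclear transcripts, 20 genes aligned to 1 of the 37 genes over at least 100 bases at an identity of at least 80%, and 9 of them had a summed expected count of at least 20. The 20 genes held 1105500 reads in replicate 1 and 902687 in replicate 2. These are 38.9% and 38.8% of all reads on mitochondrial genes and copies together. The deposited posterior mean counts, which average over possible divisions of the reads, put 28% and 27.5% on the copies. A block of 7 annotated pseudogenes on chromosome 1 (24611535-24616197, 4663 bases) held 99.8% and 99.9% of the reads of all copies. Its pseudogenes match mt-Co1, mt-Co2, mt-Atp6, mt-Co3, mt-Nd3, mt-Nd4l and mt-Nd4, in the order of the mitochondrial chromosome. Spacing was measured between the aligned stretches, which can stop short of a gene's end. In 5 of the 6 steps from one pseudogene to the next it equalled that on the mitochondrial chromosome to the base. In the other, between the matches to mt-Nd3 and mt-Nd4l, it was 74 bases in place of 73. The block has no annotated copy of mt-Atp8, and 233 bases separate its aligned stretches of mt-Co2 and mt-Atp6, as on the mitochondrial chromosome, where mt-Atp8 begins within that interval. The sequence of that interval was not analysed here.

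The ends of the genes show how little separates the copies from the mitochondrial genes. The last bases of mt-Co2, mt-Atp6 and mt-Co3 are given with those of their copies on chromosome 1, from GENCODE M21 transcript sequences. Capitals mark the bases of the mitochondrial gene that lie beyond the annotated end of the copy. All 681, 678 and 783 bases before them are identical in gene and copy.
mt-Co2: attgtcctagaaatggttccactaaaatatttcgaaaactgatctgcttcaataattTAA
Gm28661: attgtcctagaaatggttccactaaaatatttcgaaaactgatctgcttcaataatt
mt-Atp6: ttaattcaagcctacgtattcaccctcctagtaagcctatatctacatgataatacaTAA
Gm10925: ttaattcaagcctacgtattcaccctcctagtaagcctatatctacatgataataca
mt-Co3: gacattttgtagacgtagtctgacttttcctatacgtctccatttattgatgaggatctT
Gm28437: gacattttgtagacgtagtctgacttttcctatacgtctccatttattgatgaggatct
In their annotated extent the pseudogenes for mt-Co2 and mt-Atp6 thus lack the stop codon TAA, and that for mt-Co3 lacks the final T. The chromosome 1 sequence beyond those ends was not analysed here.

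The copies of mt-Co1 and mt-Nd3 on chromosome 1 differ from the mitochondrial gene at 1 aligned base each. Positions are counted from 1 at the 5′ end of the mitochondrial gene, and capitals mark the aligned base that differs. The first 9 bases shown for mt-Co1 and its copy lie outside the alignment and differ in part, without capitals. The substitution is A1066T for mt-Co1 and its copy, Gm29216, and T3C for mt-Nd3 and its copy, Gm28438. The first letter is that of the mitochondrial gene.
mt-Co1: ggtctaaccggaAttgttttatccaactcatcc
Gm29216: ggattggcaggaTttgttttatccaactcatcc
mt-Nd3: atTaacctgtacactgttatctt
Gm28438: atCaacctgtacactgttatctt
From position 1067 to 1545, the end of mt-Co1, gene and copy share 479 identical bases, while the first 9 bases of the copy could not be aligned. From position 4 to 345, mt-Nd3 and its copy share 342 identical bases.

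Complex IV, cytochrome c oxidase, passes electrons from cytochrome c to oxygen. Its largest catalytic subunit is encoded by mt-Co1 (ENSMUSG00000064351.1, chromosome M, 5328-6872), the subunit that takes electrons from cytochrome c by mt-Co2 (ENSMUSG00000064354.1, 7013-7696), and the remaining core subunit by mt-Co3 (ENSMUSG00000064358.1, 8607-9390). The level of mt-Co1 was 8019 TPM in replicate 1 and 4193 in replicate 2. That of mt-Co2 was 321 and 198 TPM, and that of mt-Co3 was 161 and 641 TPM. By the values of the mitochondrial genes alone, mt-Co1 thus lay above mt-Co2 and mt-Co3 in both replicates, and mt-Co2 and mt-Co3 changed places between them.

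Most reads of the pair formed by mt-Co2 and Gm28661 (chromosome 1, 24614885-24615565) were assigned to the pseudogene. It held 383623 reads in replicate 1 and 285551 in replicate 2, against 9468 and 7469 on mt-Co2, which put 97.6% and 97.5% on the copy. The pseudogene of mt-Co3, Gm28437 (24613189-24613971), held 246821 and 235285 reads against 5492 and 27907, or 97.8% and 89.4%. The posterior means gave lower shares to these copies, 63.4% and 61.1% for mt-Co2 and 69.4% and 65.9% for mt-Co3. For both pairs the mitochondrial gene was thus the minor holder of the reads by either measure.

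The deposited uncertainty was wide for both genes. For mt-Co2 the posterior SD was 100073 reads in replicate 1 and 76269 in replicate 2, which is 264 and 226 times the counting error. The credibility interval of its TPM ran from 1362 to 10950 and from 860 to 6836, so the deposited TPM lay under its own interval in both replicates. For mt-Co3 the interval ran from 233 to 5573 and from 453 to 4544, so the TPM lay under it in replicate 1 and inside it in replicate 2. A TPM outside its interval was not particular to genes with a wide posterior SD. For mt-Nd1, with a posterior SD of 0, it lay above the interval in both replicates. The values were 4927 TPM against 4777 to 4818 in replicate 1 and 4392 against 4284 to 4319 in replicate 2. With the reads of all copies added, mt-Co2 stood at 13351 and 7783 TPM and mt-Co3 at 7400 and 6042. The summed values lay 41.6 and 39.3 times above those of mt-Co2 alone, and 45.9 and 9.43 times above those of mt-Co3 alone.

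For mt-Co1 the share on the copy and the posterior SD were smaller. Its chromosome 1 copy aligned to 483 of the 1545 bases of the gene, and the part of this in the division was not tested. Gm29216 (24615706-24616197) held 154529 and 100079 reads, 21.8% and 21.3% of the reads of the pair. The posterior SD of mt-Co1 was 346 and 303 reads, under the counting error in both replicates. A second pseudogene, Gm13340 on chromosome 2 (22588103-22589647), matches mt-Co1 over its whole length with 37 mismatches and held 935 and 297 reads. Beside it Gm13341 (22587291-22587962), which matches mt-Co2 at 95.9% identity, held 640 and 181 reads. These diverged copies took well under 1 in 100 of the reads that the chromosome 1 copies of the same genes took.

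**Figure D1:**
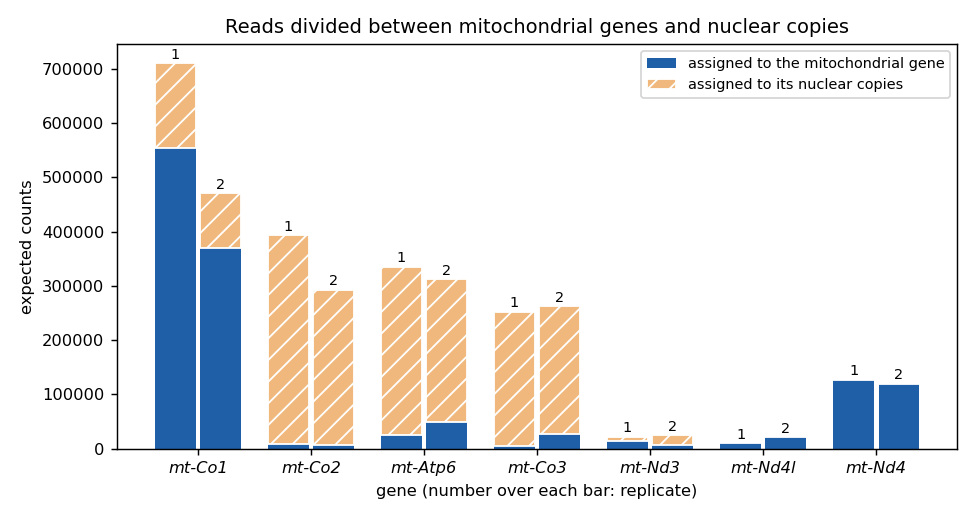
Expected counts (vertical axis) assigned to 7 mitochondrial genes with a copy in the chromosome 1 block and to their nuclear copies, 1 bar for each replicate with its number above it. The hatched part, the copies, fills most of the bars of mt-Co2, mt-Atp6 and mt-Co3, 21.8% and 21.3% of those of mt-Co1 without the chromosome 2 copy, and none that can be seen of those of mt-Nd4l and mt-Nd4.

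Complex V, the ATP synthase, makes ATP from the proton gradient, and both of its mitochondrially encoded subunits belong to the membrane part that lets protons through. Their genes, mt-Atp8 (ENSMUSG00000064356.3, 7766-7969) and mt-Atp6 (ENSMUSG00000064357.1, 7927-8607), overlap by 43 bases and are known to be read from 1 shared mRNA. The level of mt-Atp8 was 11874 and 6770 TPM in replicates 1 and 2, ranks 3 and 9 among all genes measured. The level of mt-Atp6 was 857 and 1306 TPM. By these values the 2 reading frames of the shared mRNA stood far apart, with mt-Atp8 higher in both replicates.

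The copy of mt-Atp6, Gm10925 (chromosome 1, 24613974-24614651), held 310022 and 263188 reads, 92.5% and 84.3% of those of the pair. The posterior means gave it 61.5% and 54.4%. With the copy added, mt-Atp6 stood at 11420 and 8325 TPM, beside the 11874 and 6770 of mt-Atp8. After that sum the 2 frames were close in both replicates, and their order changed from one replicate to the other. The posterior SD of mt-Atp8 was 0 in both replicates. The 2 annotated nuclear matches to the ATP synthase genes outside the block held 0 reads.

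Complex I, NADH dehydrogenase, is the largest complex of the chain and takes 7 subunits from the mitochondrial chromosome. All 7 are core subunits of its membrane arm. The highest was mt-Nd1 (ENSMUSG00000064341.1, 2751-3707), at 4927 and 4392 TPM, with 4659 ± 378 (SD, n = 2). It was followed by mt-Nd4 at 2075 and 1527 TPM and mt-Nd2 at 1900 and 1640. The gene for the single mRNA encoded on the opposite strand, mt-Nd6, stood at 1454 and 1010 TPM, and mt-Nd5, which it overlaps by 14 bases at the 3′ ends, at 1280 and 954. The ranges of mt-Nd5, mt-Nd6 and mt-Nd4l over the 2 replicates overlapped, although mt-Nd6 lay above mt-Nd5 within each replicate. Only mt-Nd1 lay above all the other complex I members in both replicates by more than 2-fold.

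The small subunit genes mt-Nd4l and mt-Nd3 differed most between the replicates within complex I on the log2 scale, by 0.73 and -1.29. The gene mt-Nd4l overlaps mt-Nd4 by 7 bases and shares its mRNA. It stood at 848 and 1404 TPM, below mt-Nd4 in both replicates. Its copy, Gm10222, is identical over 294 of its 297 bases and held 0 reads in both replicates, while the posterior SD of mt-Nd4l was 95 and 188 reads. The copy of mt-Nd4, Gm28439, is identical over 876 of 1378 bases and held 0 and 20 reads. Among the 5 copies identical to a mitochondrial gene over all aligned bases, the share of the pair's reads on the copy thus ran from 0 to 97.8%.

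The level of mt-Nd3 (ENSMUSG00000064360.1, 9459-9806) was 984 and 402 TPM, higher in replicate 1. Its copy Gm28438 (chromosome 1, 24612775-24613119) moved the other way, with 8845 and 18039 reads, or 39.1% and 71.5% of those of the pair. The sum of gene and copy stood at 1615 and 1410 TPM.

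Complex III is represented by mt-Cytb (ENSMUSG00000064370.1, 14145-15288), the gene for cytochrome b, the subunit that oxidises ubiquinol. It stood at 3231 and 2960 TPM, a mean of 3096 ± 192 (SD, n = 2), and its best nuclear match, Gm11410 on chromosome 4, held 26 and 20 reads. Together with mt-Nd1 and mt-Nd2 it was among the mRNAs with the closest agreement of the replicates.

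The mRNA ends also differ in their stop codons. Of the 13 mRNA genes, 10 end with a whole stop codon, and 3 end with a lone T after the last whole codon, which the poly(A) tail is known to complete to TAA. The last bases of these 3 are given with that T in capitals, from the same GENCODE sequences.
mt-Co3: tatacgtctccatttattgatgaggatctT
mt-Nd4: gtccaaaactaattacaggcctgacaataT
mt-Cytb: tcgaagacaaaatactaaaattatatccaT
In mt-Co3 this T is also the 1 base by which the gene extends beyond the annotated end of its identical copy.

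By the mitochondrial genes alone the 13 mRNAs ranged from 161 to 11874 TPM in replicate 1 and from 198 to 6770 in replicate 2, with medians of 1454 and 1404. The order of the mean levels was mt-Atp8, mt-Co1, mt-Nd1, mt-Cytb, mt-Nd4, mt-Nd2, mt-Nd6, mt-Nd4l, mt-Nd5, mt-Atp6, mt-Nd3, mt-Co3 and mt-Co2. Of the 12 steps between neighbours in that order, 9 joined genes whose ranges over the 2 replicates overlapped. Some of these pairs still kept their order within each replicate, such as mt-Atp8 above mt-Co1. The complex IV mRNAs took the second place and the last 2.

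With the copies added the order changed. It became mt-Co2 (10567 ± 3937 TPM, SD, n = 2), mt-Atp6 (9872 ± 2188), mt-Atp8 (9322 ± 3609), mt-Co1 (7798 ± 3492) and mt-Co3 (6721 ± 960), then mt-Nd1, mt-Cytb, mt-Nd4 and mt-Nd2, then mt-Nd3 (1513 ± 145), mt-Nd6, mt-Nd4l and mt-Nd5. The ranges of the first 5, the complex IV and V mRNAs, over the 2 replicates overlapped from each to the next. Within each replicate, however, mt-Co2 (13351 and 7783 TPM) lay above mt-Atp8 (11874 and 6770), which lay above mt-Co1 (10267 and 5329). The complex I mRNAs other than mt-Nd1 made up the lower end. The ratio of the highest to the lowest mRNA fell from 73.7 to 15.7 in replicate 1 and from 34.1 to 8.73 in replicate 2. The replicates ranked the 13 mRNAs with a Spearman rho of 0.87 by the genes alone and 0.96 with the copies added. The sum treats all reads of the copies as mitochondrial, and how many came from the nuclear loci was not tested.

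**Figure D2:**
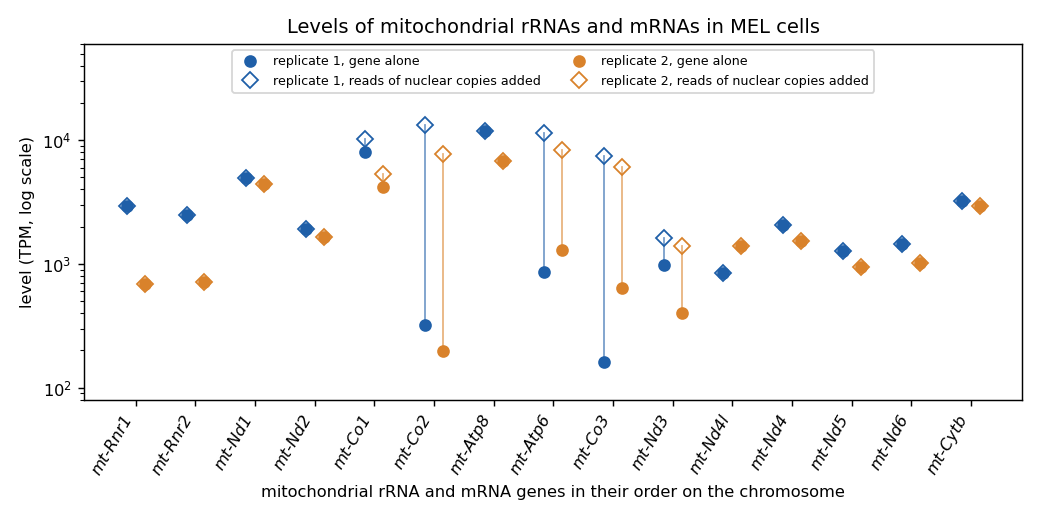
Level in TPM (log scale) of the 2 rRNA and 13 mRNA genes in their order on the mitochondrial chromosome. Filled circles are the genes alone and open diamonds the values with the reads of nuclear copies added, blue for replicate 1 and orange for replicate 2. The diamonds of mt-Co2 rise from 321 to 13351 TPM and from 198 to 7783, while genes without a copy in use keep 1 position.

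Position along the chromosome was only loosely related to the level. Over the 12 mRNAs encoded on 1 strand, the Spearman rho of TPM with the start of the gene was -0.21 and -0.30 by the genes alone, and -0.48 and -0.50 with the copies added. The 12 points come from the same 2 libraries and are neighbours on 1 precursor RNA, so these values only describe them.

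The posterior SD exceeded 3 times the counting error in both replicates for 4 of the 34 mitochondrial genes whose counts summed to 20 or more, namely mt-Co2, mt-Atp6, mt-Co3 and mt-Nd3. Over all genes with such counts 0.998% did so. The TPM lay below its own credibility interval in both replicates for mt-Co2 and mt-Atp6, against 0.742% of all such genes. Values above the interval were not counted, and mt-Rnr1, mt-Nd1 and mt-Atp8 lay above theirs in both replicates. At the other end, the posterior SD was 0 in both replicates for mt-Rnr1, mt-Nd1, mt-Atp8 and the tRNAs. How many of all genes had a posterior SD of 0 was not counted. Among the mitochondrial genes, posterior SDs above 3 times the counting error in both replicates thus lay at mt-Co2, mt-Atp6, mt-Co3 and mt-Nd3.

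By the median of its genes, the rRNA class differed more between the replicates than the mRNAs or the tRNAs, although single tRNAs differed more. The small subunit rRNA gene mt-Rnr1 (ENSMUSG00000064337.1, 70-1024) had 2932 TPM in replicate 1 but 684 in replicate 2. The large subunit rRNA gene mt-Rnr2 (ENSMUSG00000064339.1, 1094-2675) stood at 2493 and 717 TPM. Both were thus several times lower in replicate 2, by 4.29-fold and 3.48-fold, with 123094 and 36652 reads behind mt-Rnr1 and 176645 and 64921 behind mt-Rnr2.

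Within each replicate the 2 rRNAs lay close together, at less than 1.2-fold apart. Their summed share of TPM was 0.542% and 0.14%, a ratio of 3.87, while that of the mRNAs was 3.79% and 2.74%, a ratio of 1.38. Other RNAs that are not typical poly(A) mRNAs did not share 1 ratio. Gm42418, which carries sequence of cytosolic ribosomal RNA, stood at 14543 and 8242 TPM, Rpph1, the RNA of nuclear RNase P, at 49.1 and 22.7, Rn7sk at 181 and 157 and Rmrp at 27.8 and 31.1. Replicate 1 was thus higher by 1.76-fold for Gm42418, 2.17-fold for Rpph1 and 1.16-fold for Rn7sk, and Rmrp was slightly higher in replicate 2. Their part in the rRNA difference was not tested.

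A difference of at least 2-fold in TPM between the replicates was found for 2 of the 13 mRNAs, both rRNAs and 11 of the 19 tRNAs whose counts summed to 20 or more, against 18.4% of all such genes. The mRNAs were mt-Nd3, higher in replicate 1, and mt-Co3, higher in replicate 2 by 3.98-fold. With the copies added 0 of 13 mRNAs differed that much, mt-Co3 moving from 1.99 to -0.29 and mt-Nd3 from -1.29 to -0.20 on the log2 scale of replicate 2 over replicate 1. The median log2 difference was -0.42 for the mRNAs, -1.95 for the rRNAs and -0.88 for the tRNAs, beside 0.03 for all genes. By the genes alone, 10 of the 13 mRNAs were lower in replicate 2, against 7387 of the 15229 genes with such counts. The exceptions were mt-Co3, mt-Atp6 and mt-Nd4l. With the copies added, mt-Co3 and mt-Atp6 were lower in replicate 2 as well. The log2 difference of mt-Atp6 moved from 0.61 to -0.46, and that of mt-Nd4l stayed at 0.73.

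**Figure D3:**
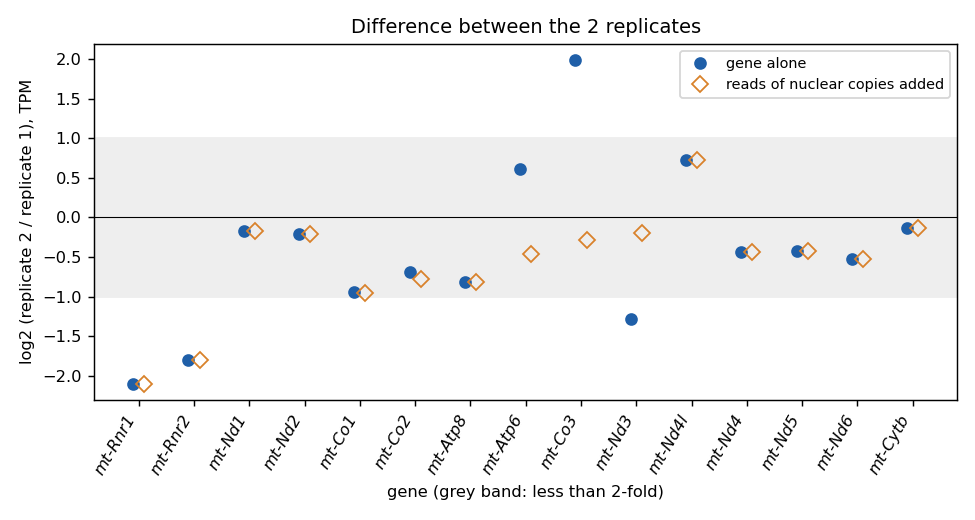
Difference between the replicates as log2 of TPM in replicate 2 over replicate 1, for the 2 rRNAs and 13 mRNAs in chromosome order. Circles are the genes alone and diamonds have the reads of nuclear copies added; the grey band spans less than 2-fold. The rRNAs lie near -2, and mt-Co3 and mt-Nd3 enter the band once the copies are added.

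Mature tRNAs are short and carry no poly(A) tail, and the tRNA genes gave few reads. They are 59 to 75 bases long and the labels give a size range above 175, with no unit. The effective lengths were 15 to 31 bases, so a small number of reads gives a large TPM: the 22 tRNAs held 0.626% and 0.451% of TPM with 7270 and 6594 reads, 0.0107% and 0.00825% of expected counts. Whether these reads came from mature tRNAs or from uncut precursors was not tested. The 4 tRNA genes with the most reads, mt-Te, mt-Ty, mt-Tn and mt-Tl1, held 84.2% and 82.5% of the reads of all 22. They are shown with mt-Tc, the tRNA with the largest difference between replicates, with the anticodon in capitals and in the letters of the DNA, from GENCODE M21.
mt-Te: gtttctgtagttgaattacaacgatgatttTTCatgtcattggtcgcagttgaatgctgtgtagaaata
mt-Ty: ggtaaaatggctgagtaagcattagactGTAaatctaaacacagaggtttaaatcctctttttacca
mt-Tn: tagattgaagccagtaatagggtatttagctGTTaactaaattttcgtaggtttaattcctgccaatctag
mt-Tl1: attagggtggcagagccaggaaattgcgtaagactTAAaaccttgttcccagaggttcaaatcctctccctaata
mt-Tc: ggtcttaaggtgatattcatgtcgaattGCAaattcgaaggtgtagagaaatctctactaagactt

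The highest tRNA gene was mt-Te (14071-14139), for glutamate, with 2153 and 3018 reads and 1869 and 2051 TPM. The tRNA gene for tyrosine, mt-Ty, had 1582 and 1099 reads and 1493 and 812 TPM, and that for asparagine, mt-Tn, 1698 and 789 reads and 1365 and 496 TPM. A leucine tRNA gene, mt-Tl1, which follows mt-Rnr2 directly, had 691 and 536 reads and 484 and 294 TPM. The only other gene with at least 100 reads in both replicates was mt-Ta, for alanine, with 138 and 103. Of these 5, only mt-Tn differed by 2-fold between the replicates, and only mt-Te was higher in replicate 2.

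Among the tRNAs with fewer reads some differed widely between the replicates and others did not. The glutamine tRNA gene mt-Tq, with 49 and 56 reads, and the serine tRNA gene mt-Ts2, with 14 and 21, differed by 1.12-fold and 1.17-fold in TPM. The cysteine tRNA gene mt-Tc (5192-5257) had 35 reads in replicate 1 (95% Poisson interval 24.4 to 48.7) and 556 in replicate 2 (511 to 604), or 34.5 and 429 TPM. The proline tRNA gene mt-Tp was also higher in replicate 2, with 33 and 132 reads. The threonine tRNA gene mt-Tt went the other way, with 221 reads (193 to 252) and 23 (14.6 to 34.5), as did mt-Tg for glycine, with 175 and 27, and mt-Th for histidine, with 119 and 13. These intervals cover counting error only, and reads were not marked as independent molecules. Of the 11 tRNAs that differed by 2-fold, 9 were higher in replicate 1 and 2, mt-Tc and mt-Tp, in replicate 2. Over all tested genes 2805 differed by 2-fold, 1665 of them higher in replicate 1 and 1140 in replicate 2.

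The 5 tRNA genes with under 20 reads in both replicates were mt-Tf for phenylalanine, mt-Tv for valine, mt-Ti for isoleucine, mt-Tw for tryptophan and mt-Td for aspartate. Of these mt-Tf had 1 and 2 reads and mt-Tv 8 and 1, and these 2 are the tRNAs that did not reach 1 TPM in both replicates. Both flank mt-Rnr1, which had 123094 and 36652 reads. The other 7 tRNA genes, mt-Ts1 and mt-Ts2 for serine, mt-Tq for glutamine, mt-Tk for lysine, mt-Tm for methionine, mt-Tr for arginine and mt-Tl2 for leucine, had between 10 and 94 reads in each replicate. For these genes a difference of a few reads moves the TPM visibly.

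By strand, the 8 tRNA genes annotated on the strand of mt-Nd6 held 79.5% and 88.5% of the tRNA reads, and the 14 on the strand of the other mRNAs held 20.5% and 11.5%. Of the 4 leading tRNA genes only mt-Tl1 lies on the strand of most mRNAs. Between the replicates 8 of the 11 tested tRNAs on the majority strand were at least 2-fold higher in replicate 1 and 0 in replicate 2. On the other strand 1 of 8 was higher in replicate 1 and 2 in replicate 2. Of all 15229 tested genes, 1665 were at least 2-fold higher in replicate 1 and 1140 in replicate 2. Precursor RNA of the majority strand runs opposite these 8 genes, and without knowledge of strand in the counting its reads cannot be told apart from theirs.

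**Figure D4:**
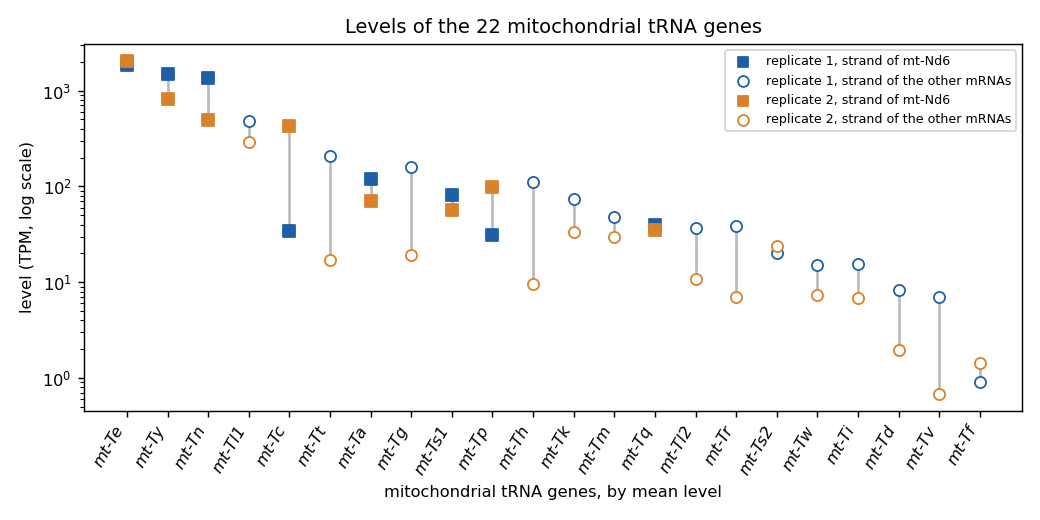
Level in TPM (log scale) of the 22 mitochondrial tRNA genes, ordered by mean, with a grey line joining the 2 replicates (blue for 1, orange for 2). Filled squares are genes on the strand of mt-Nd6 and open circles genes on the strand of the other mRNAs. The levels run from 2051 TPM for mt-Te down to 0.68 for mt-Tv, and mt-Tc shows the widest gap with replicate 2 on top.

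The respiratory chain is built from subunits of both genomes, so the mRNA levels of the 2 sets were set side by side. For complex I the median of the 7 mitochondrial mRNAs was 1454 and 1404 TPM and that of 36 nuclear subunit mRNAs 143 and 152, a ratio of 10.2 and 9.23. By mean level the nuclear set ran from Ndufa10, an accessory subunit, at 705 and 384 TPM, down to Ndufs4, another, at 30 and 24.3. For complex III mt-Cytb lay 12.1 and 9.44 times above the median of 9 nuclear subunits, 268 and 313 TPM. Uqcrq, a small accessory subunit, was the highest of these at 591 and 856 TPM, and Uqcrfs1, the iron-sulfur subunit, the lowest at 124 in each replicate. In both complexes mitochondrial mRNAs thus stood about an order of magnitude above the nuclear ones.

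For complex V the median of mt-Atp8 and mt-Atp6 lay 19 and 10.2 times above that of 16 nuclear subunits, 336 and 396 TPM. Atp5b, the catalytic beta subunit, led the nuclear set at 1982 and 1809 TPM, followed by mean level by the alpha subunit gene Atp5a1 at 841 and 1172. With the copies added the ratio was 34.7 and 19.1. For complex IV the result turned on the copies. The median of the 3 mitochondrial mRNAs was 321 and 641 TPM against 440 and 563 for 11 nuclear subunits, a ratio of 0.73 and 1.14. With the copies added the ratio was 23.4 and 10.7. Cox8a at 555 and 927 TPM and Cox4i1 at 700 and 766 had the highest mean levels of the nuclear complex IV subunits, and Cox7a2 the lowest at 137 and 250. Mean log2 ratios over the replicates were also taken, first by the mitochondrial genes alone. They were 3.28 ± 0.10 for complex I, 3.42 ± 0.25 for complex III, -0.13 ± 0.45 for complex IV and 3.80 ± 0.63 for complex V (SD, n = 2). With the copies added they were 3.36 ± 0.20, 3.42 ± 0.25, 3.98 ± 0.79 and 4.68 ± 0.61 in the same order.

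**Figure D5:**
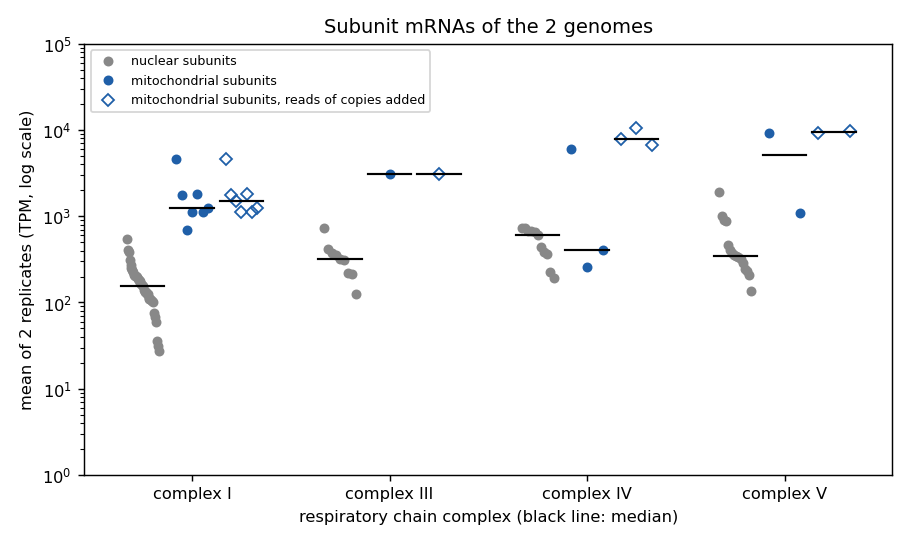
Mean TPM of 2 replicates (log scale) of the nuclear subunit mRNAs (grey), the mitochondrial subunit mRNAs (blue circles) and the mitochondrial ones with the reads of nuclear copies added (open diamonds), by complex, with medians as black lines. In complex IV the mitochondrial median lies near the nuclear one by the genes alone and 23.4 and 10.7 times above it in the 2 replicates with the copies added.

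Nuclear genes that maintain, transcribe, process and translate the mitochondrial genome were nearly all expressed. Of 76 measured genes in 5 lists, 73 reached 1 TPM in both replicates, against 26.9% of all genes measured, and 59 reached 10 TPM. The replication and packaging list had 10 of 10 at 1 TPM, with a median of 17.4. Its highest members by mean level were Tfam, which packages mitochondrial DNA and helps to start transcription, at 156 and 74 TPM, and Ssbp1, the single-strand binding protein, at 132 and 68.9. Polg, the catalytic subunit of the mitochondrial DNA polymerase, stood at 47.7 and 81.8 TPM, the helicase gene Twnk at 38.8 and 37.4, and the accessory polymerase subunit gene Polg2 was the lowest at 4.59 and 4.73. Of the 10 genes, 1 differed by 2-fold between the replicates, against 18.4% of all tested genes.

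The transcription list had 9 of 10 genes at 1 TPM, with a median of 19.2. The ribosomal protein gene Mrpl12, whose product also binds the mitochondrial RNA polymerase, was its highest at 188 and 349 TPM. The polymerase gene itself, Polrmt, stood at 20.3 and 52.4 TPM, and Mterf3, a negative regulator of mitochondrial transcription, at 71.8 and 31.8. Of the 10 genes 4 differed by 2-fold between the replicates, against 18.4% of all tested genes, 3 of them higher in replicate 1, while Polrmt was higher in replicate 2. The lowest was Mterf1b at 2.29 and 0.7 TPM.

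All 25 genes for processing and modification reached 1 TPM, with a median of 22.4. They were led by Nsun2, an RNA methyltransferase that also acts outside mitochondria, at 391 and 232 TPM, and Hsd17b10, a subunit of mitochondrial RNase P, at 124 and 165. Trnt1, which adds the CCA end to tRNAs, stood at 102 and 58.7 TPM and Qtrt1, of queuosine modification, at 64.4 and 110. The lowest by mean level was Trmt61b, a methyltransferase of mitochondrial RNA, at 6.52 and 4.6. Between the replicates 3 of the 25 differed by 2-fold, against 18.4% of all tested genes.

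Of the 17 genes for poly(A) tailing, stability and decay, 16 reached 10 TPM, with a median of 43.6, the highest of the 5 lists. Rexo2, which degrades short RNA fragments, stood at 233 and 248 TPM, Slirp, which stabilises mitochondrial mRNAs together with Lrpprc, at 132 and 136, and the FASTK family genes Tbrg4 and Fastk at 106 and 207 and at 89.5 and 175. Fastkd2, of the same family, is listed at 0 in both replicates. Of the 14 translation factors 13 reached 1 TPM, with a median of 27.6. Tufm, the elongation factor that delivers tRNAs, stood at 145 and 206 TPM, Gfm1, which moves the ribosome along, at 167 and 108, and Oxa1l, which inserts new proteins into the inner membrane, at 44.8 and 67.9. The lowest was Mss51 at 1.46 and 0.82. In these 2 lists 2 of 16 and 2 of 14 tested genes differed by 2-fold between the replicates, near the 18.4% of all tested genes.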

How the data were processed

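Polyadenylated RNA of MEL cells was measured in 2 single-end libraries. Reads were assigned per gene on mm10 with GENCODE M4, per the file headers and the submitters' notes beside them. Which aligner and quantifier were used, and whether by strand, is not given in the sources used here. Expected counts are the deposited estimates of reads per gene. For the deposited TPM and FPKM the authors corrected for effective length. The deposited score columns hold the posterior SD of the count and lower and upper credibility limits for TPM, which describe read assignment within 1 library. Effective length came from the same deposited tables.

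GENCODE M21, also on mm10, gave symbols and transcript sequences. Nuclear copies were annotated nuclear transcripts that aligned to a mitochondrial gene (blastn 2.17.0, E-value 1e-05) over at least 100 bases at 80% identity. The 884 genes without a symbol were kept among all genes measured but entered no gene list and no search for copies. Unannotated sequence and the transcript-level values were not used here. TPM with copies added was the summed count on the effective length of the mitochondrial gene. The share of TPM with the copies differs, since there each copy kept its own deposited TPM. The 26248 short features were left out of the 43346 genes but kept in the TPM total. They held 0.0574% and 0.131% of expected counts but 2.93% and 6.24% of TPM in replicates 1 and 2, which lowers the TPM of all genes. A gene was called at 1 TPM in both replicates, or, with a summed count of at least 20, at a 2-fold ratio of TPM with a pseudocount of 0.1. Counting error was the square root of the posterior mean count. No test between conditions was possible, and the spread between the replicates may be technical in part.

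The members and gene lists were chosen with earlier results of these data known. Named are all mitochondrial genes by role, copies with a summed count of at least 200, and of each list at most the 4 highest and 2 lowest genes. Smaller copies and Lrpprc were named outside this rule, after values were seen. Gm42418, Rpph1, Rn7sk and Rmrp, set beside the rRNAs, were also named outside it. Mtres1, Mtrfr and Ndufb1 had no match. Alternatives were FPKM, posterior means, other thresholds, reads per kilobase, TMM (edgeR 4.0.16) and DESeq2 1.42.0 size factors for expected counts, copies added, and each replicate left out. Only the 2-fold call was tried on simulated counts, without the short tRNA genes. The search for copies, the sums with copies and the ratios to nuclear subunits were not. Python 3.11.15 was used with pandas 2.3.3, numpy 2.4.6, matplotlib 3.10.9 and scipy 1.17.1, and R 4.3.3.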

Additional observations from a re-analysis of the deposited data

How the results depend on the processing

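Of the recomputed values 71 were classed as the same as those reported, 13 as moved and 3 as changed in sign. Values classed as the same were not all close. The share of TPM was 3.33% without replicate 1 and 4.96% without replicate 2, in place of 4.15%. At 10 TPM 15 tRNAs were counted in place of 20. Most results that moved include genes with nuclear copies, although some moved under settings that do not involve the copies, such as FPKM or 1.5-fold. Adding the copies, for the ratios and the 2-fold count an alternative chosen after seeing the data, gave the mitochondrial chromosome 3.55% of expected counts in place of 2.17%. It raised the median of the mean TPM of the mRNAs from 1232 to 3096, left 0 mRNAs with a 2-fold difference in place of 2, and gave log2 ratios to nuclear subunits of 3.98 for complex IV in place of -0.13 and 4.68 for complex V in place of 3.80. Posterior means gave a median of 2111, 1 mRNA with a 2-fold difference, 27.8% of reads on the copies in place of 38.8%, and 2.95 for complex IV. The median was 866 in FPKM, 793 in reads per kilobase scaled to library size, and 1404 to 1454 with 1 replicate left out. These last are medians within 1 replicate, and the 3 units have different scales. At 1.5-fold 7 mRNAs differed. With an expected count of at least 20 in each replicate in place of 1 TPM, 13 tRNAs were counted in place of 20. The ratio for complex IV was -0.45 to 0.19 with 1 replicate left out, so its sign depended on the replicate. No paired analysis was possible because the labels give only 1 group.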
